A study of Homo sapiens with 54 samples.

Results

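The prostaglandin E2 (PGE2) pathway was followed through 10 genes in 3 human colorectal cancer cell lines, before and after the lines had acquired resistance to 5-fluorouracil (5-FU). The set was chosen by a measured value, the large rise of PTGS2 in resistant DLD-1, and was completed with genes that make, carry, degrade and sense PGE2. It holds 10 of the 59368 genes of the deposited tables, and all 10 symbols were found there. RNA-seq had been done on the lines HT-29, DLD-1 and HCT-116, each as sensitive cells and as cells passaged in rising 5-FU until resistant and then kept in medium with the drug. Each form was given uracil (10 µM, the control) or 5-FU (10 µM) for 24 h, and a further set was irradiated with X-rays after 5-FU at a dose set for each line. By the methods, resistant cells were kept in a higher concentration of 5-FU than these 10 µM. There were 3 replicates in each of the 18 conditions, so 54 libraries in all. The methods call them biological replicates, and the p-values measure the spread between these samples. Whether each resistant line is 1 clone was not given in the sources used here. Levels are in TPM, the share of transcripts after correction for transcript length, and tests used the estimated counts.

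The libraries had between 38957142 and 218518344 counts (median 51373543), and the second highest total was 86673615. Of markers fixed for each cell type, 7 of 7 epithelial, 2 of 5 leukocyte, 3 of 5 fibroblast and 1 of 3 endothelial ones reached 1 TPM in at least 1 library. The leukocyte markers had a summed level of 0.2464 to 1688 TPM, carried by LYZ (up to 1685 TPM, in sensitive HT-29), with CD14 up to 6.10 TPM. The fibroblast markers summed to 0.9158 to 31.4 TPM, carried by COL1A1 (up to 31.1 TPM, in HCT-116), and the endothelial ones to 0.162 to 5.43 TPM, carried by PECAM1 (up to 5.20 TPM). PTPRC, CD3E, COL1A2, DCN, VWF and CDH5 stayed below 1 TPM in every library, and the part of the others in the results was not tested. The libraries labelled resistant HT-29 went against their label. Under uracil 62 of 64 marker genes of sensitive HCT-116 reached 1 TPM in them, and 0 of 12 marker genes of sensitive HT-29 did (a marker had at least 10 TPM in that line and at most 0.1 TPM in the others). They are therefore called the libraries labelled resistant HT-29, and in them resistance and cell line cannot be told apart. Resistant DLD-1 under uracil, replicate 1, had the largest mean distance to its own replicates of the 54 libraries, and the main values that rest on it are given with and without it. In a bulk library, fewer cells that express a gene and less RNA in each cell cannot be told apart.

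PGE2 is made in steps. Cytosolic phospholipase A2 (PLA2G4A) frees arachidonic acid from membranes, a cyclooxygenase (PTGS1, mostly constitutive, or PTGS2, the inducible form also called COX-2) turns it into PGH2, and a PGE synthase (PTGES, PTGES2 or PTGES3) turns PGH2 into PGE2. SLCO2A1 carries PGE2 back into cells and HPGD oxidises it to an inactive form, while PTGER2 and PTGER4 are receptors that raise cyclic AMP. PTGS2 is a well known target of anti-inflammatory drugs, and in the colon it is often high in tumours, where HPGD is often low.

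PTGS2 lies on the minus strand of chromosome 1 at chr1:186671791-186680922 (GRCh38, GENCODE 44). PACERR, a long non-coding RNA, runs the other way from chr1:186680601-186683165 and overlaps the GENCODE start of PTGS2 by 322 bases. PLA2G4A begins 148026 bases beyond the GENCODE start of PTGS2 on the same chromosome. The RefSeq start used for the promoter lies inside the GENCODE gene, and PACERR begins upstream of that RefSeq start. The promoter of PTGS2, the gene on which the comparison in DLD-1 turns, is shown from 250 bases before to 50 bases after the RefSeq start (GRCh38.p14, chr1:186680374-186680673, minus strand), with matches to searched motifs in capitals:

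PTGS2 promoter: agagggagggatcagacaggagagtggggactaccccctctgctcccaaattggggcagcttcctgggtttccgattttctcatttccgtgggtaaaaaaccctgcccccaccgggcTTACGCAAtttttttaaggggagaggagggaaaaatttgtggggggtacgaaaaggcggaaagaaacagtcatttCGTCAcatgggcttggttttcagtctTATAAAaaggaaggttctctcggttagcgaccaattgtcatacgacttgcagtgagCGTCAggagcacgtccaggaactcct

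The capitals mark a C/EBP motif (TTACGCAA) at -133, a half-site of the cyclic AMP response element (TGACG, read here on the other strand as CGTCA) at -58 and at 25, and a TATA box (TATAAA) at -32, counted from the RefSeq start. Both strands were searched and the matches do not overlap each other. The C/EBP letters occurred in 0.162% of 35116 promoters of this length, the TATA box in 11.5% and the half-site in 24.6%. The E-box CACGTG (7.26% of promoters) and the NF-kB consensus GGGRNNYYCC (11.3%) had no exact match in this window. In that consensus R is A or G, Y is C or T and N is any base. The window holds gggactaccc, which misses it by a letter, and inexact matches were not searched. Promoter windows were searched for 10 genes, which are PACERR and the members other than SLCO2A1. Of these, 3 had the TATA box (PTGS2, PACERR and PTGS1) and 2 the C/EBP letters (PTGS2 and PACERR). The windows of PACERR and PTGS2 overlap, and the matches of PACERR are the same letters as those of PTGS2. A match is a description of letters and not of binding.

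In resistant DLD-1, PTGS2 went from a trace to a level among the higher genes. Sensitive DLD-1 under uracil held 0.825, 0.955 and 0.819 TPM, and resistant DLD-1 held 113.4, 96.1 and 97.3 TPM. Every resistant library lay far above every sensitive one, and the ratio of the means was 118 (109 to 128 with each replicate number left out in turn). The behaviour was the same under 5-FU, with 0.911, 0.933 and 1.05 TPM against 89.7, 90.2 and 87.3 TPM and a ratio of 92.4. Under 5-FU with irradiation the libraries held 1.22, 0.959 and 0.940 TPM against 86.9, 86.7 and 90.6 TPM, a ratio of 84.6. These values chose the gene set, so they are a description and no test is given for this contrast. By difference in log2(TPM + 1), PTGS2 ranked 1 of the 16502 genes with a mean of 1 TPM or more in either form under uracil, and it also ranked 1 under both other treatments. Its own level ranked 15856 in sensitive and 1610 in resistant DLD-1 under uracil.

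**Figure D1:**
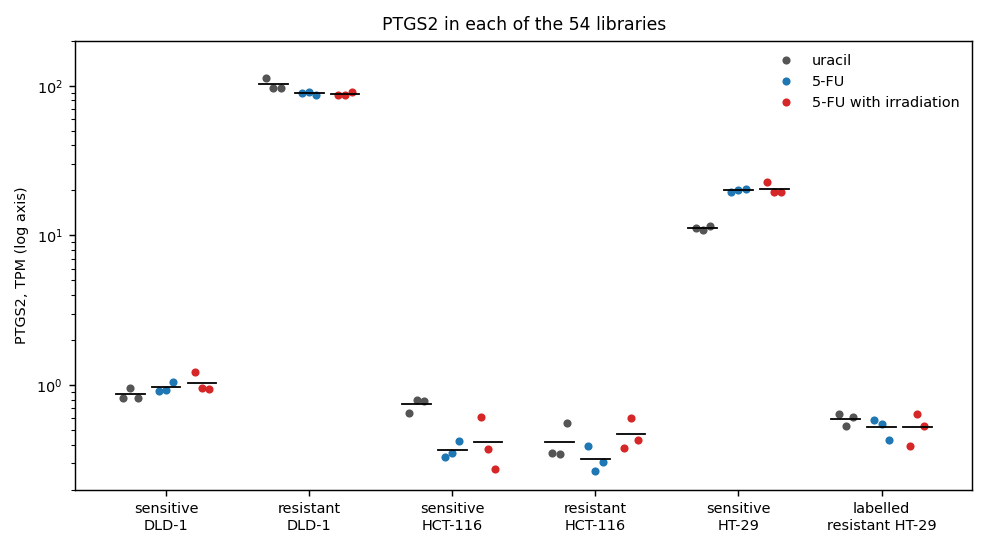
PTGS2 in TPM on a log axis in each of the 54 libraries (points), by line and form on the horizontal axis and by treatment in colour, with the mean of 3 replicates as a bar. Resistant DLD-1 sits between 86.7 and 113.4 TPM, sensitive HT-29 between 10.9 and 22.6 TPM, and the other groups at or below 1.22 TPM.

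The main coding transcript carried the difference. PTGS2-201 (4510 bases) held 88.7% of the gene's TPM in sensitive DLD-1 under uracil and 93.2% in resistant DLD-1, which is 0.768 ± 0.0933 against 95.1 ± 6.87 TPM (SD, n = 3). PTGS2-203, a transcript with a retained intron, was at 0 in sensitive DLD-1 under uracil and at 2.57 ± 0.199 TPM in resistant DLD-1, where it was 2.51% of the gene. In sensitive HT-29 under uracil PTGS2-201 was 92.6% of the gene.

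The other genes of the pathway differed far less than PTGS2 in the same contrast. Of the 8 members at 1 TPM or more under uracil, 2 (PTGS2 and PLA2G4A) were at least 2-fold apart with no overlap of libraries. This stands beside 5.62% of all 16502 such genes, and 0 members were lower by that measure. PTGS2 chose the set and passed the 1 TPM limit only through resistant cells, so only PLA2G4A adds to this count. PLA2G4A stood at 3.93, 2.98 and 2.93 TPM in sensitive and at 11.6, 5.64 and 6.35 TPM in resistant DLD-1 under uracil. The highest of these is the library that stands apart, and the ratio of 2.39 was 2.03 without replicate 1. Under 5-FU and under 5-FU with irradiation, where that library has no part, PLA2G4A ratios were 2.99 and 2.94. PTGS1 was below 1 TPM in mean in every DLD-1 condition, at 0.316 ± 0.0436 in sensitive and 0.927 ± 0.323 TPM (SD, n = 3) in resistant cells under uracil, a ratio of 2.93, and 2.44 without replicate 1. The ratio of PTGS2 to PTGS1 within a library went from 2.80 ± 0.678 to 117 ± 29.7 (SD, n = 3), and from 2.96 to 131.2 without replicate 1.

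The synthases that act after PTGS2 were similar in both forms under uracil. PTGES held 24.9, 24.6 and 26.3 TPM in sensitive and 30.5, 25.7 and 24.7 TPM in resistant DLD-1 under uracil, and these libraries overlapped. PTGES2 (95.2 ± 1.15 against 92.1 ± 3.81 TPM) and PTGES3 (640.8 ± 24.9 against 615.2 ± 37.9 TPM) also overlapped under uracil. Under 5-FU and under 5-FU with irradiation the libraries of the forms did not overlap for any of these synthases. In that order the ratios of resistant to sensitive cells were 1.21 and 1.29 for PTGES and 1.39 and 1.29 for PTGES3. For PTGES2 they were 0.923 and 0.910. These are TPM ratios, and they were not computed on the count scale. For 5-FU against uracil, TPM ratios lay above TMM-scaled count ratios by a median log2 of 0.108 in sensitive DLD-1. The median was -0.0263 in resistant DLD-1. The log2 TPM ratio of PTGES2 under 5-FU, -0.116, is of a similar size, so its direction apart from the scaling was not tested. PTGES3, a co-chaperone of HSP90 as well as a synthase, has processed copies PTGES3P1 to PTGES3P5 in the tables. The highest value of any of them in a library was 1.32 TPM, and reads shared with them were not assigned here.

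On the side that removes PGE2, HPGD was lower in resistant DLD-1 under treatment. Sensitive cells held 53.4, 50.8 and 53.2 TPM and resistant cells 51.7, 30.9 and 34.5 TPM under uracil, where the library that stands apart is the highest of the resistant group and the groups overlap. The ratio under uracil was 0.743, and 0.628 without replicate 1. It was 0.670 under 5-FU and 0.607 under 5-FU with irradiation, with no overlap in either. Within a library, PTGS2 over HPGD went from 0.0165 ± 0.00194 to 2.71 ± 0.467 under uracil (SD, n = 3), and from 0.0171 to 2.97 without replicate 1. SLCO2A1 was low throughout, and the DLD-1 groups overlapped under every treatment. Only 1 library reached 1 TPM for it, resistant DLD-1 under 5-FU with irradiation, replicate 1, at 1.79 TPM from 22 estimated counts.

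The receptors went apart. PTGER2 was lower in resistant DLD-1 under uracil, at 2.20, 2.13 and 2.00 TPM against 3.72, 4.18 and 3.35 TPM, a ratio of 0.563 (0.549 without replicate 1). The ratio was 0.348 under 5-FU and 0.488 under 5-FU with irradiation, and the libraries did not overlap under any treatment. PTGER4 had ratios of 1.40 (1.36 without replicate 1), 0.794 and 1.12 in the same order, and only the first was without overlap. With a 2-fold difference and no overlap as the measure, 3 of 8 members at 1 TPM or more were apart under 5-FU (PLA2G4A and PTGS2 higher, PTGER2 lower), beside 9.70% of all 17117 genes. The same 3 were apart under 5-FU with irradiation, beside 9.98% of 17194 genes. PTGS2, which chose the gene set, is included in both counts and adds nothing to them.

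**Figure D2:**
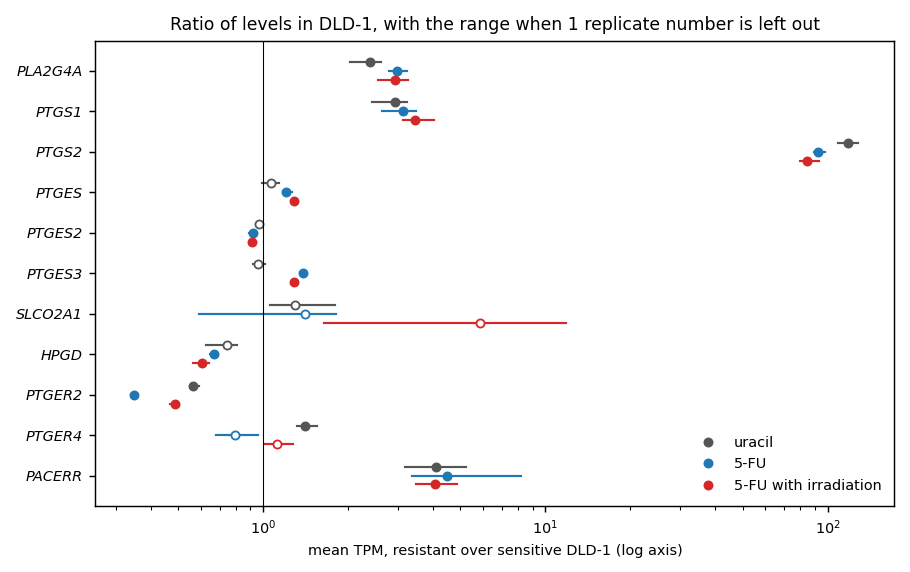
Mean TPM in resistant over sensitive DLD-1 on a log axis for the 10 genes and PACERR, by treatment. Lines give the range when each replicate number is left out in turn, filled points mark groups with no overlap of libraries. PTGS2 sits at 84.6 to 118, PLA2G4A and PTGS1 between 2.39 and 3.45, and PTGER2 below 1 at every treatment.

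The wider eicosanoid and regulator lists were counted in resistant DLD-1 by that same measure, under uracil beside the 5.62% of all genes given above. Among the other prostanoid synthases and reductases, 1 of 7 genes at 1 TPM or more was apart. It was AKR1C3, which makes PGF2 alpha from PGH2 and reduces PGD2, at 5.23, 4.13 and 4.85 TPM in sensitive and 0.821, 0.482 and 0.296 TPM in resistant cells, 8.89-fold lower in mean and 11.6-fold lower without replicate 1. None of 7 other phospholipases A2, 2 other receptors and transporters, 5 genes of the lipoxygenase branch, 16 regulators of PTGS2 transcription and mRNA decay, 6 cyclic AMP response genes and 3 genomic neighbours of PTGS2 was apart, that is 0 in each list. Counts of 0 or 1 in lists of this size are near that background, and no test was made. Of those regulators, EGR1 held 33.2 ± 0.616 and 49.0 ± 12.9 TPM in sensitive and resistant cells and FOS 1.54 ± 0.128 and 2.00 ± 1.11 TPM (SD, n = 3), both highest in resistant replicate 1, and JUN held 8.24 ± 0.469 and 6.07 ± 0.837 TPM. Under 5-FU, where 9.70% of all genes were apart, 2 of 7 synthases and reductases were lower in resistant cells, AKR1C3 (14.9-fold) and PTGR1 (3.33-fold), a reductase of prostaglandins and leukotrienes. JUN, 1 of 16 regulators, was 2.40-fold lower and NR4A2, 1 of 7 cyclic AMP response genes, 2.04-fold higher. Of 4 neighbours of PTGS2, PACERR was 4.48-fold higher, and OCLM (2.10-fold) and ODR4 (2.33-fold) were lower, while the other lists had 0. With irradiation OCLM (4.30-fold) and ODR4 (2.29-fold) were again lower, 2 of 3 neighbours, beside 9.98% of all genes. These genes were named after their values were seen.

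PACERR was higher in resistant DLD-1 too. It held 0.164, 0.405 and 0.158 TPM in sensitive and 1.19, 1.30 and 0.492 TPM in resistant DLD-1 under uracil, a ratio of 4.10 (3.19 without replicate 1), from between 4 and 39 estimated counts a library. Because it overlaps PTGS2 on the other strand and the strand setting of the quantification was not given in the sources used here, reads of the overlap cannot be assigned to either with certainty. Over the 18 condition means of log2(TPM + 1), PACERR had the highest Pearson correlation with PTGS2 of 21995 genes with a mean of 1 TPM in a condition (r = 0.968, n = 18). It was followed by AP3B2 (r = 0.944), TNFRSF14-AS1 (r = 0.943), ZNF595 (r = 0.941) and AL136018.1 (r = 0.937). These points share lines and treatments, and resistant DLD-1 and sensitive HT-29 hold all the high values, so r describes that pattern only. PACERR reached the 1 TPM needed for this ranking in 1 of the 18 conditions, resistant DLD-1 under 5-FU (1.099 TPM), which is a group where PTGS2 is high and which the choice of genes used. With Spearman's rho 1 of these 5 genes was again among the first 5. Of the members, HPGD came nearest (r = 0.673, rank 746 of 21995), then PTGS1 (r = 0.529, rank 2530). Over the 6 DLD-1 conditions alone the leading genes were AC004057.1, AC019117.3, S100A4, ZNF595 and MTCH2, with r of at least 0.999. These 6 points form a low and a high cluster, the contrast that chose the gene set, so r only finds other genes that differ in it. The list was not stable, with 1, 1 and 2 of the 5 genes kept without replicate 1, 2 and 3, and 2 with Spearman's rho. Over these conditions PLA2G4A had r = 0.966 (rank 342 of 18069) and PACERR r = 0.991 (rank 66). HPGD (r = -0.973, rank 17743) and PTGER2 (r = -0.897, rank 16482) ran the opposite way. The size of the change varied among these leading genes between sensitive and resistant DLD-1 under uracil. AC004057.1 went from 730.3 to 872.2 TPM and MTCH2 from 180.7 to 211.1 TPM. AC019117.3 went from 0.809 to 19.98 TPM, ZNF595 from 0.0440 to 2.01 TPM, and S100A4, a calcium-binding protein, from 73.3 to 411.0 TPM. A high r here does not mean a large change.

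**Figure D3:**
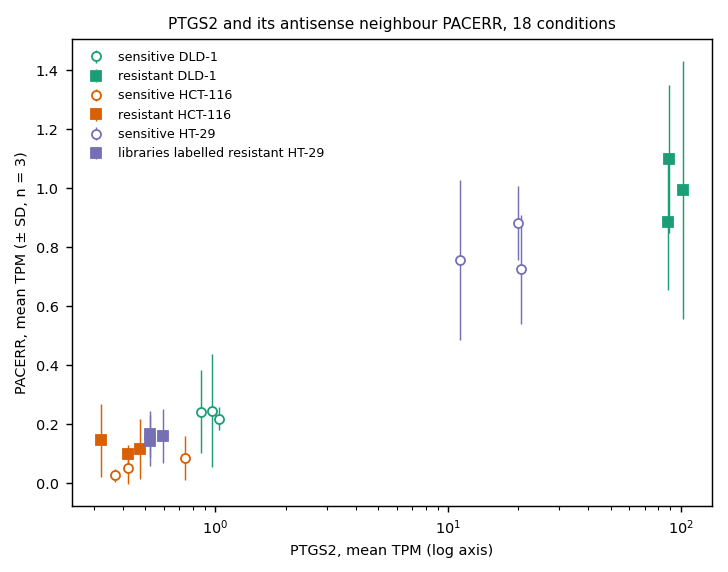
Mean TPM of PTGS2 (log axis) against mean TPM of PACERR (± SD, n = 3) in the 18 conditions, open circles for sensitive cells and filled squares for resistant cells and the libraries labelled resistant HT-29. Resistant DLD-1 and sensitive HT-29 lie apart from the other conditions in both genes.

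In resistant HCT-116 PTGS2 stayed below 1 TPM, as in sensitive cells. Sensitive HCT-116 under uracil held 0.650, 0.797 and 0.778 TPM and resistant HCT-116 0.354, 0.349 and 0.555 TPM, so every resistant library was lower (log2 difference of -0.92 ± 0.25 SE, adjusted p = 0.00342, edgeR quasi-likelihood fit, Benjamini-Hochberg over all genes tested, as in all tests here). A gene was called at an adjusted p of at most 0.01 and a change of at least 2-fold, so PTGS2 was not called in this comparison. Of the 9 members tested (SLCO2A1 was too low), 3 fell and 0 rose, beside 11.0% of all genes, and the count called was 1 without replicate 2 and 5 without replicate 3. HPGD fell from 0.881 ± 0.260 to 0.282 ± 0.188 TPM (log2 -1.99 ± 0.38 SE, adjusted p = 0.000145), and PTGER2 fell from 0.846 ± 0.193 to 0.354 ± 0.0957 TPM (log2 -1.29 ± 0.29 SE, adjusted p = 0.000787). PTGS1 fell from 0.325 to 0.211 TPM (log2 -1.02 ± 0.27 SE, adjusted p = 0.00274). All 3 are below 1 TPM in mean, and without replicate 2 the calls of PTGER2 (log2 -1.02, adjusted p = 0.0375) and PTGS1 (log2 -0.92, adjusted p = 0.0364) were lost, as was that of PTGS1 without replicate 1 (log2 -0.80, adjusted p = 0.0776). PTGS1 also missed the 2-fold limit with library size scaling (log2 -0.95), with DESeq2 (log2 -0.99, so that DESeq2 called 2 members) and in a fit of the compared groups only (log2 -0.998). PLA2G4A was lower by less than 2-fold, at 13.7 ± 0.785 against 7.81 ± 1.67 TPM (log2 -0.85 ± 0.10 SE, adjusted p = 3.66e-07), with no overlap. Under 5-FU 1 of 9 members was called, beside 13.3% of all genes: PTGS1 fell from 0.445 to 0.151 TPM. Under 5-FU with irradiation 0 of 9 were called, beside 11.9% of all genes, and DESeq2 called 0, while 1 was called without replicate 3. Of the members 7 had an unadjusted p under 0.05, beside 13152 of all 22975 genes. An adjusted p of at most 0.01 was met by 6 members, beside 43.8% of all genes. The direction seen under uracil was not kept under treatment for PTGS2, HPGD and PTGER2, none of which passed the test there. PTGS2 had a log2 difference of 0.06 ± 0.26 SE under 5-FU (adjusted p = 0.872, with the opposite sign in TPM) and 0.46 ± 0.26 SE with irradiation (adjusted p = 0.137). The values were 0.29 and 0.21 for HPGD (adjusted p = 0.539 and 0.677) and 0.78 and 0.79 for PTGER2 (adjusted p = 0.0531 and 0.0592).

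Of the 62 genes tested from the other lists in resistant HCT-116 under uracil, 4 rose and 7 fell, which is 17.7% beside 11.0% of all genes. The largest was CELF2, an RNA-binding protein from the list of PTGS2 regulators (0.0493 to 0.559 TPM, log2 3.35 ± 0.28 SE). Next came PDE4D, which degrades cyclic AMP (0.625 to 5.48 TPM, log2 3.21 ± 0.14 SE), and EGR1, a transcription factor of the early response (69.2 to 8.74 TPM, log2 -3.03 ± 0.24 SE). The adjusted p-values of CELF2, PDE4D and EGR1 were 1.05e-09, 4.66e-14 and 4.68e-10. Of the 7 lipoxygenase-branch genes tested, 3 fell and 0 rose (ALOXE3, ALOX15 and ALOX5, named after their values were seen), with a list median of -0.66 on the log2 scale beside 0.00 for all genes.

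Sensitive HT-29 was the line with PTGS2 before any resistance. Under uracil it held 11.2, 10.9 and 11.6 TPM, above every library of sensitive DLD-1 (log2 difference of DLD-1 minus HT-29 of -3.87 ± 0.10 SE, adjusted p = 2.25e-35) and of sensitive HCT-116 (HT-29 minus HCT-116 of 4.24 ± 0.12 SE, adjusted p = 8.7e-35). Sensitive DLD-1 and HCT-116 were not called apart (log2 0.37 ± 0.16 SE, adjusted p = 0.0354). The level in resistant DLD-1 was still several times that of HT-29, as the plot of PTGS2 by library shows. HT-29 also held the most PTGS1, at 7.87 ± 0.338 TPM against 0.316 in sensitive DLD-1 and 0.325 in sensitive HCT-116, so that PTGS2 over PTGS1 was 1.43 ± 0.0553 there (SD, n = 3).

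The 3 sensitive lines differed in members of the pathway, though between DLD-1 and HCT-116 in about the share seen among all genes. HPGD was high in DLD-1 (52.5 ± 1.43 TPM) and HT-29 (44.6 ± 2.79 TPM) and almost silent in HCT-116 (0.881 ± 0.260 TPM), with log2 differences from HCT-116 of 5.95 ± 0.16 SE and 5.98 ± 0.16 SE (adjusted p = 1.15e-34 and 8.67e-35). DLD-1 and HT-29 did not pass the test for HPGD (log2 -0.03 ± 0.10 SE, adjusted p = 0.823), and the sign differs between the count scale and TPM. PTGES was high in DLD-1 (25.2 ± 0.904 TPM) and HCT-116 (14.7 ± 0.219 TPM) and low in HT-29 (1.18 ± 0.291 TPM). PLA2G4A ran from 3.28 ± 0.567 TPM in DLD-1 through 13.7 ± 0.785 in HCT-116 to 29.5 ± 1.27 TPM in HT-29, with no overlap between neighbours. The receptors were at or near 0 in HT-29. PTGER2 had 0 counts in all 3 uracil libraries, and it was at least 84.1-fold higher in DLD-1 and at least 23.4-fold higher in HCT-116 against a floor of 3 counts per library, which covers counting error only. PTGER4 held 0.0623 ± 0.0451 TPM in HT-29 against 1.24 ± 0.224 in DLD-1 and 1.52 ± 0.271 TPM in HCT-116. In all, 3 of 10 members were called between DLD-1 and HCT-116 (beside 30.7% of all genes), 7 of 10 between DLD-1 and HT-29 (30.9%) and 7 of 10 between HT-29 and HCT-116 (37.5%). The 7 of DLD-1 and HT-29 include SLCO2A1, at least 2.38-fold higher in DLD-1, a call that was lost when any replicate number was left out.

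**Figure D4:**
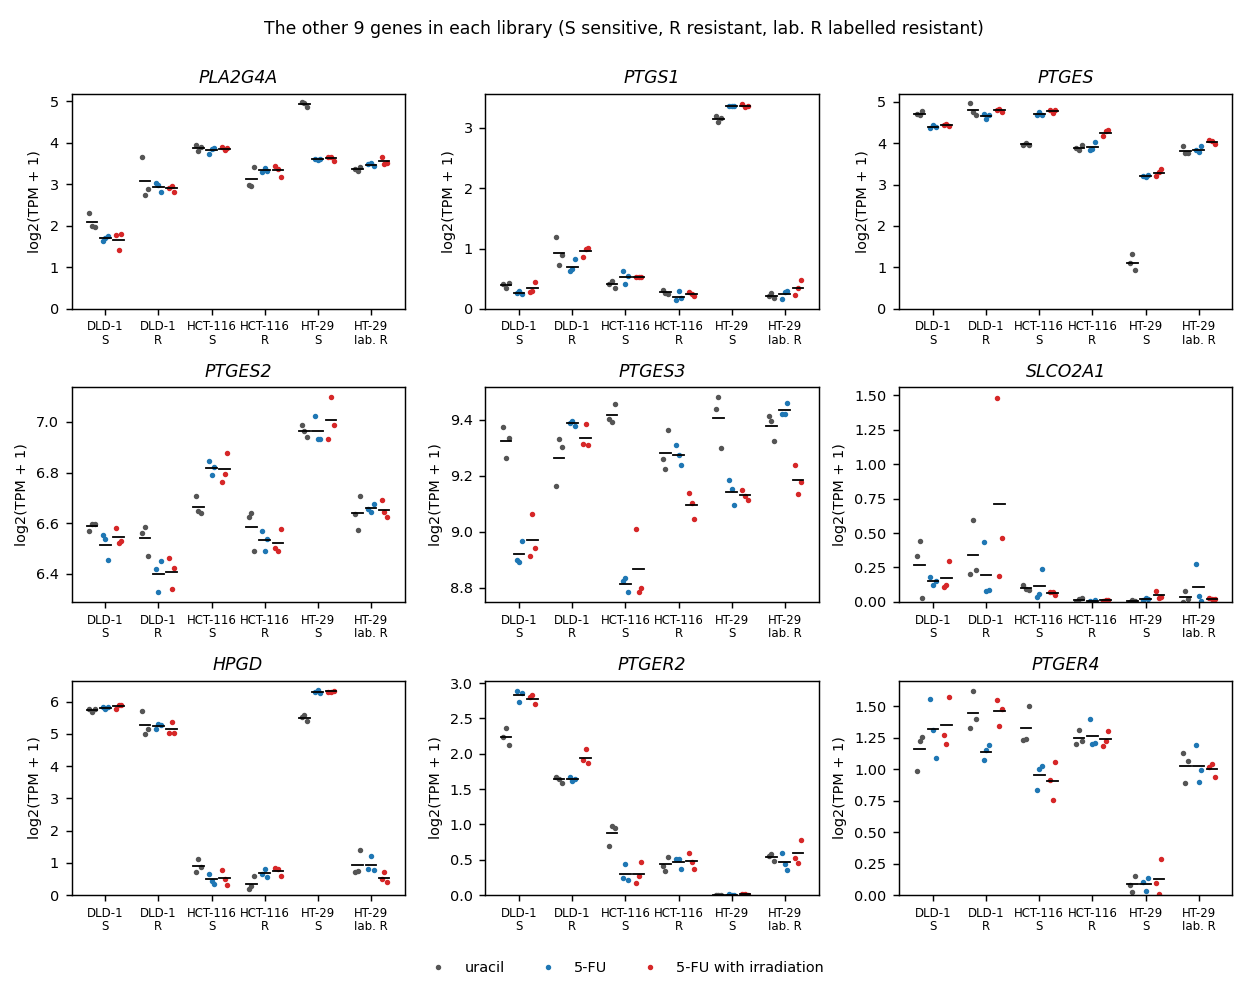
The other 9 genes as log2(TPM + 1) in each library (points) and their means (bars), by line and form and coloured by treatment; the axes of PTGES2 and PTGES3 do not start at 0. HPGD separates DLD-1 and sensitive HT-29 from HCT-116, and PTGER2 and PTGER4 are at or near 0 in sensitive HT-29.

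The libraries labelled resistant HT-29 also stood nearer to HCT-116 than to HT-29 in the number of members called. Against sensitive HT-29 under uracil, 7 of the 9 members tested were called, beside 39.4% of all genes. PTGS2 was lower in the labelled libraries, at 0.594 ± 0.0569 against 11.2 ± 0.384 TPM in sensitive HT-29. So were HPGD (0.977 against 44.6 TPM) and PTGS1 (0.163 against 7.87 TPM), while PTGES was higher (13.1 against 1.18 TPM). PTGER4 was higher in the labelled libraries (1.05 against 0.0623 TPM). PTGER2, with 0 counts in each library of sensitive HT-29, was at least 10.6-fold higher in them. PLA2G4A was lower, at 9.23 against 29.5 TPM. Against sensitive HCT-116, 2 of 10 members were called (PTGS1 and PTGER2, both lower), beside 6.87% of all genes. Against resistant HCT-116, 1 of 10 was called (HPGD, 0.977 against 0.282 TPM, adjusted p = 0.00659), beside 3.36%, and this call was lost without replicate 2 (adjusted p = 0.0254) and without replicate 3 (adjusted p = 0.0792).

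The 5-FU response was compared at 24 h in each sensitive line. In HT-29 PTGES rose from 1.14, 1.49 and 0.916 TPM to 8.18, 8.13 and 8.38 TPM (log2 2.52 ± 0.11 SE, adjusted p = 1.73e-16), and PLA2G4A fell from 30.6, 29.8 and 28.1 TPM to 11.2, 10.9 and 11.2 TPM (log2 -1.66 ± 0.06 SE, adjusted p = 3.63e-18). The groups did not overlap for either gene. These were 2 of the 8 members tested, beside 12.2% of all genes. PTGS2 held 11.2, 10.9 and 11.6 TPM under uracil and 19.4, 20.2 and 20.4 TPM under 5-FU, which is a log2 difference of 0.61 ± 0.07 SE on the count scale (adjusted p = 2.77e-08), under the 2-fold limit. HPGD was likewise higher in each library, at 78.3 ± 2.52 against 44.6 ± 2.79 TPM (log2 0.57 ± 0.06 SE, adjusted p = 2.31e-09). In this comparison TPM ratios lie above the TMM-scaled count ratios by a median of 0.25 on the log2 scale over all genes, so the PTGES2 values of 123.9 and 123.7 TPM go with a log2 difference of -0.34 ± 0.04 SE on the count scale (adjusted p = 2.8e-07). PTGS2 over HPGD within a library was 0.253 ± 0.0249 under uracil and 0.256 ± 0.0120 under 5-FU (SD, n = 3).

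Of the 64 genes tested from the other lists in sensitive HT-29 under 5-FU, 8 rose and 0 fell, which is 12.5% and near the 12.2% of all genes. The largest were PTGER1, a PGE2 receptor that signals through calcium (0.179 to 2.57 TPM, log2 3.65 ± 0.30 SE, adjusted p = 9.71e-11), PLA2G2F, a secreted phospholipase (0.546 to 4.42 TPM, log2 2.72 ± 0.13 SE, adjusted p = 1.45e-15), and AKR1B1, a reductase that can make PGF2 alpha (0.327 to 2.09 TPM, log2 2.47 ± 0.19 SE, adjusted p = 2.09e-11). By list these were 2 of 7 receptors and transporters (median log2 0.94), 2 of 11 phospholipases A2 (0.49), 1 of 8 synthases and reductases (0.06), 2 of 7 lipoxygenase-branch genes (0.18), 1 of 8 cyclic AMP response genes (0.20), 0 of 18 regulators (-0.21) and 0 of 5 neighbours of PTGS2 (0.02), beside a median of 0.03 over all genes.

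In sensitive HCT-116 5-FU lowered genes that were already near 1 TPM. PTGER2 fell from 0.846 ± 0.193 to 0.234 ± 0.110 TPM (SD, n = 3), with no overlap (log2 -2.16 ± 0.31 SE, adjusted p = 3.47e-06). PTGS2 fell from 0.650, 0.797 and 0.778 TPM to 0.331, 0.353 and 0.424 TPM (log2 -1.11 ± 0.25 SE, adjusted p = 0.000605), on 37 to 84 estimated counts a library. HPGD fell from 0.881 to 0.403 TPM (log2 -1.22 ± 0.35 SE, adjusted p = 0.00511), but its call was lost without replicate 2 (adjusted p = 0.0672) and without replicate 3 (adjusted p = 0.0311). These 3 of the 9 members tested stand beside 8.14% of all genes. PTGES stood at 14.6, 14.9 and 14.5 TPM under uracil and 24.7, 25.7 and 24.4 TPM under 5-FU, higher in every library but under the 2-fold limit (log2 0.76 ± 0.06 SE, adjusted p = 3.7e-10). PLA2G4A did not pass the test (log2 -0.07 ± 0.10 SE, adjusted p = 0.571). Of the 18 regulators tested 2 fell and 1 rose: EGR1 (69.2 to 15.5 TPM, adjusted p = 3.2e-08) and FOS (7.04 to 1.90 TPM, adjusted p = 4.25e-09), both early response factors, fell and CELF2 rose. Over the 62 genes tested from the other lists 9.68% were called. Of 8 other phospholipases A2, 2 rose (PLA2G4D and PLA2G4C), and OCLM rose among 5 neighbours of PTGS2. These list genes are named because their counts are small, after their values were seen.

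In sensitive DLD-1 none of the 10 members was called by edgeR (0 of 10, beside 4.02% of all genes), and DESeq2 called 0. Of the members 6 had an unadjusted p under 0.05, beside 11060 of all 21814 genes. PTGS2 did not pass the test, at 0.866 ± 0.0768 and 0.964 ± 0.0736 TPM (log2 0.05 ± 0.11 SE, adjusted p = 0.724). PTGER2 stood at 3.72, 4.18 and 3.35 TPM under uracil and 6.43, 5.66 and 6.23 TPM under 5-FU, higher in every library but under 2-fold (log2 0.67 ± 0.08 SE, adjusted p = 1.03e-06). PTGES was lower, at 25.2 ± 0.904 against 20.1 ± 0.622 TPM (log2 -0.43 ± 0.06 SE, adjusted p = 1.95e-06). None of the other listed genes was called, in any of the 7 lists.

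PTGES3 was lower after 5-FU in the sensitive cells of all 3 lines. The log2 difference was -0.50 ± 0.05 SE for DLD-1 (adjusted p = 1.72e-07), -0.60 ± 0.05 SE for HCT-116 (adjusted p = 2.17e-09) and -0.52 ± 0.05 SE for HT-29 (adjusted p = 3.02e-09). None reached 2-fold, and in each line all 3 5-FU libraries lay below all 3 uracil libraries.

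**Figure D5:**
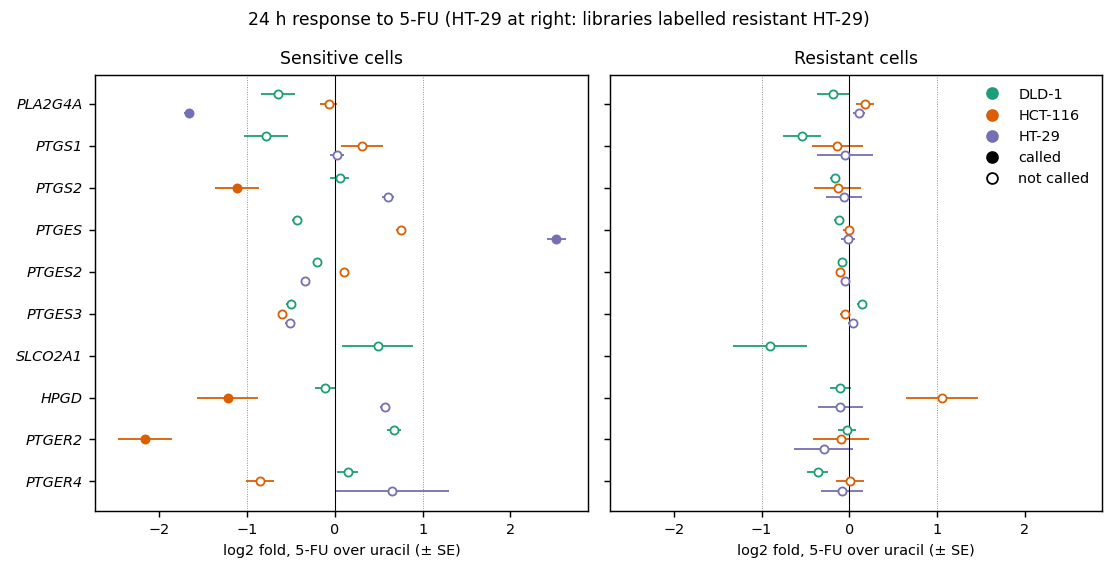
Log2 fold of 5-FU over uracil with its SE for each gene in sensitive cells (left) and resistant cells (right), coloured by line; filled points are called and genes too low to test have no point. In sensitive cells PTGES of HT-29 lies at 2.52 and PTGER2 of HCT-116 at -2.16, and in resistant cells no point is filled.

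The differences between the lines were tested directly, in comparisons added after the responses had been seen. The PTGES response was larger in HT-29 than in DLD-1 by 3.02 ± 0.12 SE on the log2 scale (adjusted p = 1.28e-25) and than in HCT-116 by 1.82 ± 0.12 SE (adjusted p = 1.11e-17). PTGS2 responded differently in HT-29 and HCT-116 by 1.80 ± 0.22 SE (adjusted p = 1.02e-09) and in DLD-1 and HCT-116 by 1.18 ± 0.25 SE (adjusted p = 0.000131). The last of these lost its call without replicate 2 (log2 0.99, adjusted p = 0.0282). The PTGER2 response was 2.83 ± 0.28 SE higher in DLD-1 than in HCT-116 (adjusted p = 7.95e-12). In all, 3 of 10 members were called for DLD-1 against HCT-116 (beside 5.31% of all genes), 1 of 9 for HT-29 against DLD-1 (6.87%) and 4 of 9 for HT-29 against HCT-116 (12.1%).

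No member was called after 5-FU in resistant cells, which had been kept in a higher concentration of the drug than the one given. In resistant DLD-1 0 of 10 members were called after 5-FU, beside 0.0138% of all genes, and DESeq2 called 0. Of the members 7 had an unadjusted p under 0.05, beside 4041 of all 21814 genes. PTGS2 stayed high, at 102 ± 9.67 and 89.1 ± 1.57 TPM (log2 -0.17 ± 0.05 SE, adjusted p = 0.0948, and log2 -0.12, adjusted p = 0.187, without replicate 1). In resistant HCT-116 0 of 9 were called, beside 0.0% of all genes, and DESeq2 called 0. Of these members 2 had an unadjusted p under 0.05, beside 1878 of all 22975 genes. In the libraries labelled resistant HT-29 0 of 9 were called, beside 0.00421%, and DESeq2 called 0. Of these members 0 had an unadjusted p under 0.05, beside 1280 of all 23756 genes.

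The response of resistant cells differed from that of sensitive cells by test for some members. In HCT-116, 2 of 9 members were called for the difference, beside 6.11% of all genes: HPGD (2.27 ± 0.53 SE, adjusted p = 0.00154) and PTGER2 (2.07 ± 0.44 SE, adjusted p = 0.000684). Both calls were lost without replicate 2 (adjusted p = 0.0847 and 0.0312). PTGES responded by 0.76 less in resistant HCT-116 (log2 -0.76 ± 0.09 SE, adjusted p = 2.29e-07). In DLD-1 0 of 10 reached the 2-fold limit, beside 3.12% of all genes, and DESeq2 called 0. Of the members 6 had an unadjusted p under 0.05, beside 8891 of all 21814 genes. With the adjusted p alone, PTGES3 (0.65 ± 0.08 SE, adjusted p = 1.64e-06), PTGER2 (-0.70 ± 0.13 SE, adjusted p = 0.000263) and PTGES (0.31 ± 0.08 SE, adjusted p = 0.00459) differed. These 3 of 10 members stand beside 22.8% of all genes by that measure, which is near the same share. PTGS2 did not (log2 -0.22 ± 0.12 SE, adjusted p = 0.19, and log2 -0.36, adjusted p = 0.0267, without replicate 1). Without replicate 1 PTGES3, PTGER2 and PTGES kept an adjusted p of at most 0.01, at 4.22e-05, 0.00533 and 0.00501. In HT-29 this difference was not tested, because of the markers of the labelled resistant libraries.

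Irradiation added to 5-FU left the pathway with no called member in any line or form. The counts called were 0 of 10 in sensitive DLD-1 (beside 0.0% of all genes), 0 of 10 in resistant DLD-1 (0.142%), 0 of 9 in sensitive HCT-116 (0.0%), 0 of 9 in resistant HCT-116 (0.0261%), 0 of 8 in sensitive HT-29 (0.00842%) and 0 of 9 in the libraries labelled resistant HT-29 (0.434%). In the same order, 0, 4, 0, 3, 0 and 3 members had an unadjusted p under 0.05, and DESeq2 called 0 in each. Over all genes, those under 0.05 were 2447 and 4714 of 21814 for DLD-1 and 1943 and 4305 of 22975 for HCT-116. They were 786 and 7721 of 23756 for sensitive HT-29 and the libraries labelled resistant HT-29. The adjusted p passed in 3 cases under 2-fold, 1 each in resistant DLD-1, resistant HCT-116 and the libraries labelled resistant HT-29. By that measure 3.85%, 2.58% and 14.4% of all genes passed in these comparisons. PTGER2 was higher in resistant DLD-1, at 2.75, 3.20 and 2.64 TPM against 2.20, 2.05 and 2.13 TPM (log2 0.51 ± 0.10 SE, adjusted p = 0.0021). PTGES was higher in resistant HCT-116, at 16.9, 18.5 and 18.8 TPM against 13.3, 13.5 and 15.2 TPM (log2 0.36 ± 0.06 SE, adjusted p = 0.00088). PTGES3 was lower in the libraries labelled resistant HT-29, at 580.9 ± 21.0 against 690.8 ± 11.0 TPM (log2 -0.28 ± 0.05 SE, adjusted p = 0.000224). PTGS2 in resistant DLD-1 was 88.1 ± 2.22 TPM with irradiation and 89.1 ± 1.57 TPM without (log2 -0.03 ± 0.05 SE, adjusted p = 0.829).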

How the data were processed

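RNA-seq libraries had been made from poly(A) RNA of HT-29, DLD-1 and HCT-116, each in a sensitive and a resistant form, under 3 treatments, with 3 replicates each. The authors trimmed reads with Trimmomatic 0.36, checked them with FastQC 0.11.8 and quantified transcripts with kallisto 0.44.0 on GRCh38.p13 and Ensembl 98, per the labels and methods. They deposited estimated counts, of which 60.9% were whole numbers at gene level, and TPM, which are scaled to transcript length and library. kallisto shares reads among similar transcripts by estimate, so levels of genes with near copies are uncertain. The depth of each library bounds the precision of low genes, and intervals or floors cover counting error only.

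Groups were taken from the labels. Estimated counts were rounded, scaled by TMM, filtered with filterByExpr and tested with edgeR 4.0.16 (quasi-likelihood, R 4.3.3) in 1 fit for each line, and in 1 fit of 54 libraries between lines. p-values were Benjamini-Hochberg adjusted over all genes tested, and a call needed an adjusted p of at most 0.01 and a change of at least 2-fold. The SE was derived from the F statistic. The contrast of resistant and sensitive DLD-1 had chosen the genes and was only described, in TPM. On simulated data for sensitive cells, 200 of 200 genes changed by 2 on the log2 scale were recovered in each line. The false calls were 3 for DLD-1, 3 for HCT-116 and 1 for HT-29. The planted change lay well above the 2-fold limit, so recovery of smaller changes was not tested. Descriptions used Python 3.11.15, numpy 2.4.6, pandas 2.3.3 and matplotlib 3.10.9. Coordinates came from GENCODE 44 and the promoter from RefSeq.

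The members and lists were chosen with earlier results of these data known. Named were the 10 members, the 3 list genes with the largest change among those called in a comparison, the 5 genes most like PTGS2 over 18 and over 6 conditions, and PACERR. Alternatives were library size scaling, no filter, DESeq2 1.42.0, the compared groups only, the adjusted p alone, other pseudocounts, a thinned deepest library, a replicate block and leaving out each replicate number. The comparisons of 5-FU responses between lines, the counts of the other lists in DLD-1 and the scaling shifts were added after seeing the data.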

Additional observations from a re-analysis of the deposited data

Results flagged for a closer look

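These differences in the response to 5-FU passed a test of the difference itself, on the log2 scale with edgeR's quasi-likelihood test and Benjamini-Hochberg adjustment. Between resistant and sensitive HCT-116 they were HPGD (2.27, adjusted p = 0.00154) and PTGER2 (2.07, adjusted p = 0.000684). Between sensitive DLD-1 and HCT-116 they were PTGS2 (1.18, adjusted p = 0.000131), PTGES (-1.20, adjusted p = 2.43e-15) and PTGER2 (2.83, adjusted p = 7.95e-12). Between sensitive HT-29 and DLD-1 PTGES differed (3.02, adjusted p = 1.28e-25). Between sensitive HT-29 and HCT-116 they were PLA2G4A (-1.53, adjusted p = 1.83e-10), PTGS2 (1.80, adjusted p = 1.02e-09), PTGES (1.82, adjusted p = 1.11e-17) and HPGD (1.86, adjusted p = 3.29e-05). HPGD, PTGER2 and PTGS2 of HCT-116 lie at or near 1 TPM or below, and the part of depth in their differences was not tested. The 3 comparisons between lines were added after the responses were seen.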

How the results depend on the processing

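No result changed direction among the calls under any alternative run. With the adjusted p alone, more members passed: 4 of 10 in sensitive DLD-1 after 5-FU, 6 of 9 in sensitive HCT-116 and 6 of 8 in sensitive HT-29. By that measure 34.7%, 42.0% and 47.0% of all genes passed, so these counts are not particular to the members. It gave 1 each for irradiation in resistant DLD-1, resistant HCT-116 and the libraries labelled resistant HT-29, 3 and 5 for resistant minus sensitive response in DLD-1 and HCT-116, 5, 6 and 6 for resistant against sensitive HCT-116 under uracil, 5-FU and 5-FU with irradiation, and 6 for the libraries labelled resistant HT-29 against sensitive HCT-116. Between lines it gave 5 for DLD-1 minus HCT-116 and 4 for HT-29 minus DLD-1 (25.3% and 27.2% of all genes). The count for DLD-1 minus HCT-116 was also 5 with no filter, 6 with DESeq2 and 5 with the compared groups only, and the cause was not tested. With each replicate number left out, counts ran from 0 to 2 for the resistant minus sensitive response in HCT-116, 1 to 5 and 0 to 1 for resistant HCT-116 under uracil and 5-FU with irradiation, 0 to 1 for the labelled libraries against resistant HCT-116, and 1 to 2 for HT-29 minus DLD-1.

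The log2 ratio of PTGS2 in resistant over sensitive DLD-1 was 6.88, 6.53 and 6.40 under uracil, 5-FU and 5-FU with irradiation. It was 5.79, 5.52 and 5.45 on the log2(TPM + 1) scale, and 6.39 under 5-FU on the log2(TPM + 0.1) scale, where the added constant lowers it by construction. In TMM-scaled CPM it was 6.72 with irradiation, and the cause was not tested. It ran from 6.77 to 7.003, 6.49 to 6.61 and 6.31 to 6.55 with each replicate number left out.

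Counts over all genes were small and unsteady in 5-FU on resistant DLD-1 (3, and 74 with no filter, 5 with DESeq2, 0 with the compared groups only) and in irradiation on resistant DLD-1 (31, and 111 with no filter and 18 with DESeq2), resistant HCT-116 (6, and 76, 3 and 1), sensitive HT-29 (2, and 51, 0 and 5) and the labelled libraries (103, and 189 with no filter). 5-FU on the labelled libraries gave 1, and 48 with no filter and 2 with DESeq2. The resistant minus sensitive response in DLD-1 gave 681, and 450 without replicate 2. Same-numbered samples deviated together above 0.1 in 0 of 45, 2 of 45 and 0 of 45 pairs for DLD-1, for HCT-116 and for HT-29, so they share only a number, and the replicate block changed no member count and no member call. It gave 1 gene in place of 3 for 5-FU on resistant DLD-1.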
